A study of Mustela putorius furo and Mus musculus with 4 samples.

Results

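The water channel aquaporin-4 and the membrane complexes that hold it or lie beside it in astrocytes were compared between cultured ferret and mouse cortical astrocytes. The 9 genes were Aqp4, the dystrophin complex genes Dag1, Dmd, Utrn and Dtna, the MLC1 complex genes Mlc1, Hepacam and Clcn2, and the cation channel gene Trpv4. They were chosen by gene symbol, without regard to case. All 9 were present among the 13373 symbols that the ferret and mouse values share, with a single value per species each.

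The study compared astrocytes of a carnivore with a folded cortex and of a rodent, with 2 libraries for each species. Ferret astrocytes came from the cerebral cortices of normally pigmented sable ferrets on postnatal day 1, and mouse astrocytes from wild-type ICR mice on postnatal day 1 to 3, and neither group carried a transgene or received a drug. In both groups, mixed glia grew for 14 days with 10% fetal bovine serum and were shaken, and the attached cells were replated. The medium was changed on day 3 and RNA was taken on day 7, after 4 days in a serum-free medium with heparin-binding EGF-like growth factor. The glia of 1 ferret pup filled 4 flasks, whereas those of 4 mouse pups shared a flask, so a mouse culture pools animals. The sources used here do not say whether the libraries of a species came from separate cultures, so the tests measure the spread between libraries, which may be technical. Species, genome annotation and culture cannot be told apart.

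Aquaporin-4 carries water across the astrocyte membrane and is concentrated in the endfeet, the processes that wrap blood vessels and line the brain surface. There it is held by the dystrophin complex, in which dystrophin or its homologue utrophin ties the actin cytoskeleton to dystroglycan, and dystroglycan binds laminins and agrin of the basement membrane. MLC1, the adhesion molecule encoded by Hepacam and the chloride channel encoded by Clcn2 form a neighbouring assembly involved in ion and water balance, and mutations in their genes cause white matter disease in humans.

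The deposited values are FPKM, a fragment count divided by exon length in kilobases and by the mapped fragments of the library. They can be compared between genes within a library, since they are per length, but each species was quantified on its own gene models. The deposited values hold no read counts, so the depth cannot be read from them and no counting interval is given. The species were compared by limma, on a scale of log2(FPKM + 1), over the 10204 shared genes whose mean reached 1 FPKM in either species, a limit that 8 of the 9 genes passed. Trpv4 did not, and its values come from the same fit on all 13373 symbols. A call required an adjusted p (Benjamini-Hochberg) under 0.05 and a log2 difference beyond 1 in either direction.

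Aqp4, Mlc1, Dmd, Dag1 and Dtna were lower in ferret astrocytes, Utrn was higher, and Hepacam and Clcn2 stayed under the limit of size. By adjusted p alone, 8 of the 8 tested genes passed, as 88.6% of all tested genes did. With the limit of size, 5 of the 8 tested genes were called lower, where 30.1% of all tested genes were, and 1 was called higher, where 13.1% were. The share of calls among these genes is to be read against that background, in which 43.2% of genes were called in either direction. The median log2 difference of the 8 genes was -1.29, and that of all tested genes was -0.35. The background depended on the scaling between species, as 3069 genes were called lower and 1336 higher with FPKM as deposited, 2215 and 1967 after rescaling the libraries to equal sums over the shared symbols, and 2090 and 2110 after quantile normalization. With either of the latter, 3 of the genes were called lower, because Dag1 and Dtna no longer passed the limit of size. The ferret libraries did not overlap the mouse libraries for any of the 9 genes, as was the case for 94.1% of all tested genes. The 9 genes together had 249 and 243 FPKM in the ferret duplicates and 711 and 750 FPKM in the mouse duplicates, which is 0.110% and 0.103% against 0.237% and 0.243% of the sum over shared symbols.

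**Figure D1:**
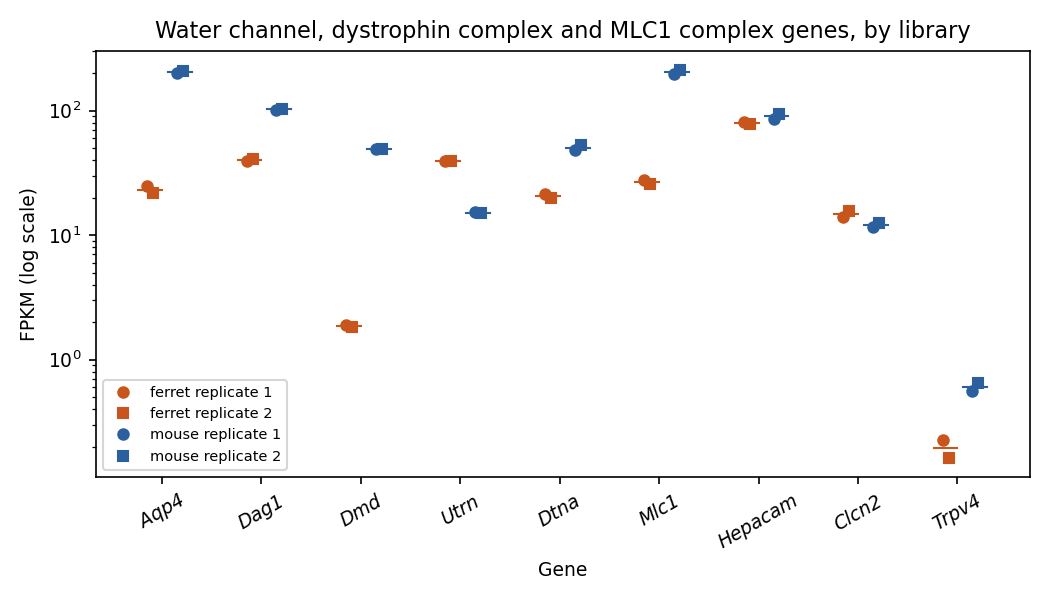
FPKM on a log axis for each of the 9 genes in each of the 4 libraries (orange ferret, blue mouse, circles replicate 1, squares replicate 2), with a short line at the mean of each species. The duplicates lie close together for every gene except Trpv4. Dmd and Utrn separate in opposite directions, and Hepacam and Clcn2 lie close in both species.

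Aqp4 had 24.8 and 21.8 FPKM in the ferret duplicates and 202 and 210 FPKM in the mouse duplicates. The study had already reported Aqp4 as lower in ferret astrocytes from these values. Both ferret libraries were far below both mouse libraries, with a mean 8.84-fold higher in mouse astrocytes. The log2 difference was -3.09 (standard error, SE, 0.070, limma adjusted p = 1.68e-10). The position of Aqp4 among all shared genes does not depend on the scaling of a library, and it stood at the 85.0th and 82.4th percentile of the ferret libraries and at the 98.6th percentile of both mouse libraries. In mouse astrocytes it was the highest of the 9 genes together with Mlc1, and in ferret astrocytes 4 genes were above it.

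Dag1, which encodes both subunits of dystroglycan, the link between dystrophin and the basement membrane, had 39.4 and 40.6 FPKM in the ferret duplicates and 101.5 and 103.6 FPKM in the mouse duplicates. The log2 difference was -1.34 (SE 0.057, limma adjusted p = 9.15e-09). It moved to -0.95 after rescaling to equal sums and to -0.99 after quantile normalization, which ended the call while the adjusted p stayed at 7.57e-07 and 4.75e-07 by limma. Dag1 remained among the more abundant genes in both species, at the 91.1st percentile of both ferret libraries and at the 96.4th percentile of both mouse libraries. The mouse gene is on the minus strand of chromosome 9 (GRCm38, as for all coordinates here), from 108204634 to 108263958.

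Dmd, which encodes dystrophin, had 1.88 and 1.83 FPKM in the ferret duplicates and 49.1 and 49.2 FPKM in the mouse duplicates. This was the widest gap among the 9 genes, with a mean 26.4-fold higher in mouse astrocytes and duplicates that were nearly equal within each species. The log2 difference was -4.13 (SE 0.065, limma adjusted p = 2.71e-11), and with a pseudocount of 0.1 in place of 1 it was -4.65, since the pseudocount understates changes of low values. Dmd stood at the 36.9th and 36.6th percentile of the ferret libraries and at the 90.7th and 90.5th percentile of the mouse libraries.

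Utrn, which encodes the dystrophin homologue utrophin, went the other way. It had 39.5 and 39.2 FPKM in the ferret duplicates and 15.4 and 14.9 FPKM in the mouse duplicates. The mean was 2.59-fold higher in ferret astrocytes, and the log2 difference was 1.32 (SE 0.059, limma adjusted p = 1.44e-08). Rescaling to equal sums widened it to 1.69 and quantile normalization to 1.70. Utrn stood at the 91.2nd and 90.7th percentile of the ferret libraries and at the 69.5th and 68.6th percentile of the mouse libraries.

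Within a library, ratios of FPKM are free of the scaling between libraries. The FPKM of Utrn was 20.98 and 21.4 times that of Dmd in the ferret duplicates, whereas the FPKM of Dmd was 3.19 and 3.29 times that of Utrn in the mouse duplicates. The order of the homologues was thus inverted, and the log2 ratio of Dmd to Utrn was -4.40 ± 0.019 (SD, n = 2) in ferret against 1.69 ± 0.032 in mouse astrocytes. An exact two-sided permutation test of 2 libraries against 2 gave p = 0.333, the smallest it can give, and adjusted over the 6 ratios tested it was 0.333 as well. Both genes have transcripts of very unequal length. The mouse gene is on the plus strand of chromosome X, from 82948870 to 85206141, with 84 exonic regions, and its protein-coding transcripts in GENCODE M21 range from 1858 to 14910 bases, so that they differ 8.02-fold in length. Utrn, on the minus strand of chromosome 10, from 12382188 to 12869365, has 80 exonic regions and protein-coding transcripts of 660 to 12382 bases. A gene value in FPKM does not tell these forms apart, the ferret models were not used here, and their part in the inverted ratio was not tested.

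Dtna, which encodes α-dystrobrevin, a cytoplasmic partner of dystrophin and utrophin, had 21.3 and 20.01 FPKM in the ferret duplicates and 48.4 and 52.5 FPKM in the mouse duplicates. The mean was 2.44-fold higher in mouse astrocytes, a log2 difference of -1.25 (SE 0.066, limma adjusted p = 4.79e-08). The call ended after rescaling to equal sums, at -0.87, and after quantile normalization, at -0.88. Its FPKM was 11.3 and 10.9 times that of Dmd in the ferret duplicates and 0.987 and 1.07 times in the mouse duplicates. In mouse astrocytes the libraries of Dtna and Dmd overlapped in level, and in ferret astrocytes Dtna and Utrn stayed at 20.7 and 39.3 FPKM on average while Dmd was at 1.86.

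**Figure D2:**
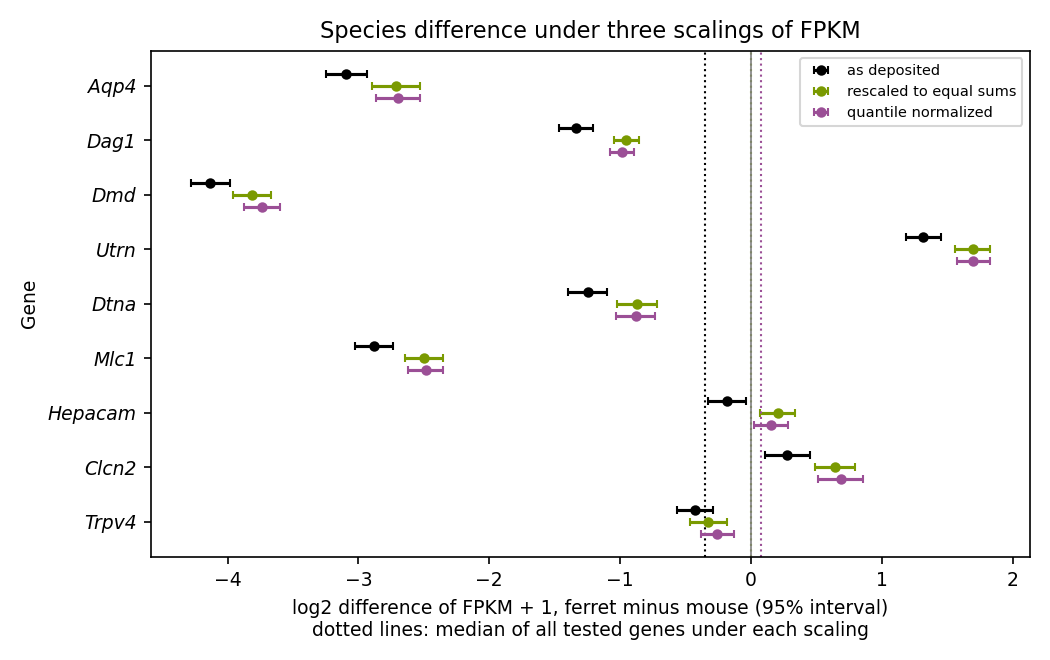
The log2 difference of FPKM + 1, ferret minus mouse, with its 95% interval from limma, for the 9 genes under the deposited FPKM (black), after rescaling to equal sums (green) and after quantile normalization (purple), with dotted lines at the median of all tested genes under each scaling. Aqp4, Mlc1 and Dmd stay well below zero and Utrn above it under each scaling, Dag1 and Dtna move to just above -1, and Hepacam crosses zero.

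Mlc1, which encodes a membrane protein found almost only in astrocytes within the brain, had 27.8 and 25.9 FPKM in the ferret duplicates and 197 and 212 FPKM in the mouse duplicates. The mean was 7.61-fold higher in mouse astrocytes, and the log2 difference was -2.88 (SE 0.065, limma adjusted p = 1.53e-10). Mlc1 stood at the 86.9th and 85.3rd percentile of the ferret libraries and at the 98.6th and 98.7th percentile of the mouse libraries. The mouse gene is on the minus strand of chromosome 15, from 88955884 to 88979007, and its 2 protein-coding transcripts are of nearly equal length, 2783 and 2801 bases.

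Hepacam encodes the adhesion molecule that brings MLC1 and the chloride channel to astrocyte junctions. It had 80.5 and 77.9 FPKM in the ferret duplicates and 85.6 and 94.8 FPKM in the mouse duplicates. These levels were close, with a mean 1.14-fold higher in mouse astrocytes and a log2 difference of -0.18 (95% interval -0.33 to -0.04, adjusted p = 0.0237 by limma), although the libraries of the species did not overlap. The direction depended on the scaling, as the difference was 0.20 after rescaling to equal sums and 0.16 after quantile normalization, so no direction is given for this gene. By position among shared genes, Hepacam was at the 96.5th and 96.1st percentile of the ferret libraries and at the 95.5th and 95.9th percentile of the mouse libraries. The mouse gene is on the plus strand of chromosome 9, from 37367351 to 37386575, with a single protein-coding transcript.

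Clcn2, which encodes a chloride channel, had 13.9 and 15.7 FPKM in the ferret duplicates and 11.6 and 12.5 FPKM in the mouse duplicates. The log2 difference was 0.28 (95% interval 0.11 to 0.45, adjusted p = 0.0065 by limma), under the limit of 1 for a call. It stayed under that limit after rescaling to equal sums, at 0.64, and after quantile normalization, at 0.69, with ferret astrocytes higher each time. The mouse gene is on the minus strand of chromosome 16, from 20702964 to 20717746.

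The genes of the MLC1 complex therefore differed unequally between the species. The FPKM of Hepacam was 2.89 and 3.01 times that of Mlc1 in the ferret duplicates, whereas that of Mlc1 was 2.30 and 2.23 times that of Hepacam in the mouse duplicates. The log2 ratio of Mlc1 to Hepacam was -1.56 ± 0.041 (SD, n = 2) in ferret and 1.18 ± 0.031 in mouse astrocytes, a 6.70-fold gap. The ratio of Clcn2 to Hepacam differed less, at 0.173 and 0.202 in the ferret duplicates and 0.136 and 0.131 in the mouse duplicates. Aqp4 and Mlc1 kept a similar ratio, 0.890 and 0.842 in the ferret duplicates and 1.02 and 0.992 in the mouse duplicates, although both genes were several-fold lower in ferret astrocytes. In contrast, the FPKM of Aqp4 was 0.629 and 0.536 times that of Dag1 in the ferret duplicates and 1.99 and 2.03 times in the mouse duplicates. For each of these ratios the libraries of the species did not overlap, and the exact two-sided permutation p was 0.333, the smallest this design allows.

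**Figure D3:**
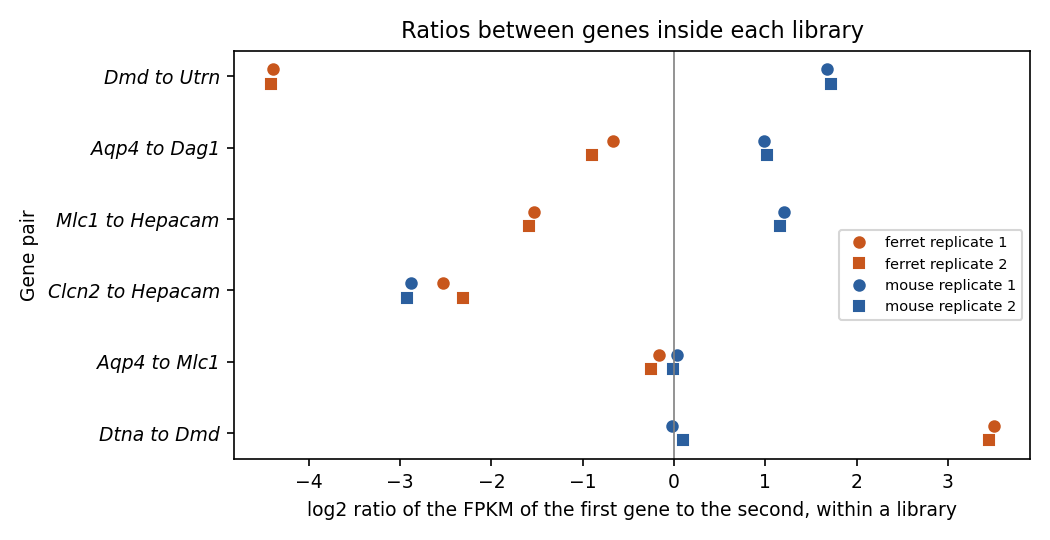
The log2 ratio of the FPKM of 2 genes within each library for 6 gene pairs (orange ferret, blue mouse, circles replicate 1, squares replicate 2), with a line at equal levels. The ratios of Dmd to Utrn, Aqp4 to Dag1 and Mlc1 to Hepacam are below zero in both ferret libraries and above zero in both mouse libraries, and those of Aqp4 to Mlc1 lie near zero in all 4.

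Trpv4, which encodes a calcium-permeable channel that opens on cell swelling, was the lowest of the 9 genes in both species. It had 0.226 and 0.164 FPKM in the ferret duplicates and 0.565 and 0.652 FPKM in the mouse duplicates, all under the limit of 1. The log2 difference was -0.43 (SE 0.044, limma adjusted p = 0.0036 on all shared symbols), and with a pseudocount of 0.1 it was -1.27 (adjusted p = 0.0065 by limma). At such values the size of the difference is set largely by the pseudocount. Among all shared symbols 22.9% were called lower with a pseudocount of 1. The mouse gene is on the minus strand of chromosome 5, from 114622152 to 114658421.

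The order of the levels differed between the species. In ferret astrocytes it ran from Hepacam through Dag1, Utrn, Mlc1, Aqp4, Dtna, Clcn2 and Dmd to Trpv4, and Dag1 and Utrn were the only neighbours whose libraries overlapped. In mouse astrocytes it ran from Aqp4 through Mlc1, Dag1, Hepacam, Dtna, Dmd, Utrn and Clcn2 to Trpv4, where Aqp4 and Mlc1 overlapped, and so did Dtna and Dmd. The libraries of the other neighbours did not overlap, but those of Aqp4 and its neighbours Mlc1 and Dtna in ferret astrocytes, and of Dag1 and Hepacam in mouse astrocytes, lay closer to each other than the wider pair of duplicates. This is a description of 2 libraries per species and no test. Aqp4 was at position 5 in ferret and 1 in mouse astrocytes and Utrn at position 3 and 7, while Trpv4 was at position 9 in both. The order within a library does not depend on its scaling, which moves all genes of a library together.

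The genes whose levels over the 4 libraries were nearest to those of Aqp4, by Euclidean distance of log2(FPKM + 1), were Mgst1, a microsomal glutathione transferase, Oat, ornithine aminotransferase, and Acta2, the actin of smooth muscle. Their distances were 0.130, 0.240 and 0.266. Oat and Mgst1 were also among the nearest to Mlc1, at 0.154 and 0.218. Mgst1, for example, had 27.1 and 22.2 FPKM in the ferret duplicates and 202 and 209 FPKM in the mouse duplicates. These genes were picked for that likeness, which carries no test.

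Of 10 dystrophin complex partners (syntrophins, β-dystrobrevin, sarcoglycans and sarcospan), 8 were shared by symbol and 6 were tested, of which 1 was called lower, 2 higher and 3 neither by limma. Among all tested genes 43.2% were called in either direction, so that 3 calls among 6 genes are near the background. Their median log2 difference was 0.43, against -0.35 for all tested genes. Sspn, which encodes sarcospan, a small membrane protein of the complex, had 4.35 and 4.50 FPKM in the ferret duplicates and 12.3 and 12.3 FPKM in the mouse duplicates, a log2 difference of -1.29 (SE 0.069). Its call ended after rescaling to equal sums (-0.95) and after quantile normalization (-0.88). Without ferret replicate 2 or without mouse replicate 1, 2 partners were called lower. Higher in ferret astrocytes were Sntb2, β2-syntrophin, an adaptor, with 9.41 and 11.3 FPKM against 3.49 and 3.41 FPKM and a log2 difference of 1.35 (SE 0.090), and Sgce, ε-sarcoglycan, with 1.30 (SE 0.062). Sgce was the most abundant of the partners listed in ferret astrocytes, at 74.8 and 77.0 FPKM in the ferret duplicates and 29.0 and 31.4 FPKM in the mouse duplicates. Both genes stayed called higher under each scaling.

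The list of dystroglycan ligands held agrin, perlecan and chains of laminins, not each of which binds dystroglycan itself. All 9 genes were tested, of which 3 were called higher, 0 lower and 6 neither by limma. Among all tested genes 13.1% were called higher and 30.1% lower. Their median log2 difference was 0.30. At an unadjusted p under 0.05 by limma, 4 of the 9 were lower, all by less than the limit of size, and 5 were higher. Of all tested genes, 88.6% passed by adjusted p alone, so passing without the limit of size is common. Lama4 had 60.0 and 66.6 FPKM in the ferret duplicates and 10.4 and 10.1 FPKM in the mouse duplicates, a log2 difference of 2.51 (SE 0.068). Lama1 had 8.70 and 8.82 FPKM against 0.640 and 0.623 FPKM, with a log2 difference of 2.58, and Lamc1 had 98.5 and 103 FPKM against 29.4 and 28.3 FPKM, with 1.77. These genes encode the laminin α4, α1 and γ1 chains, and all 3 stayed called higher under both other scalings. Lama1 averaged 0.632 FPKM in mouse astrocytes and passed the filter through ferret alone, so the direction of its call was largely fixed in advance. Of the 6 not called, agrin stood at 41.4 and 44.3 FPKM in the ferret duplicates and 51.9 and 46.9 FPKM in the mouse duplicates. Lama2, the laminin α2 chain, stood at 6.40 and 6.70 FPKM against 11.8 and 10.7 FPKM, a log2 difference of -0.70 (SE 0.075).

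Binding of dystroglycan to these ligands needs a sugar chain that is built in the Golgi and endoplasmic reticulum. All 12 genes of that synthesis were tested, and 10 were called in neither direction, where 43.2% of all tested genes were called in one or the other. Rxylt1, the ribitol xylosyltransferase, was lower, with 10.98 and 11.06 FPKM in the ferret duplicates and 32.6 and 32.4 FPKM in the mouse duplicates (log2 difference -1.48, SE 0.060). Pomk, the mannose kinase, was higher, with 14.8 and 15.0 FPKM against 6.25 and 6.62 FPKM (log2 difference 1.10, SE 0.068). Both calls held after rescaling to equal sums and after quantile normalization. The median log2 difference of the list was -0.28, close to the -0.35 of all tested genes.

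Of 12 membrane neighbours of aquaporin-4 and MLC1 (other aquaporins, potassium channels, connexins, cotransporters and the receptors linked to MLC1), 11 were shared and 10 tested, and 8 were called lower, 0 higher and 2 neither by limma, with 0 higher at an unadjusted p under 0.05. Among all tested genes 30.1% were called lower. Of the genes called lower, Aqp11, Kcnj16 and Gjb6 averaged 0.529, 0.0634 and 0.0821 FPKM in ferret astrocytes. They passed the filter through mouse alone, so the direction of their calls was largely fixed in advance. The median log2 difference of the list was -1.29. After rescaling to equal sums 5 of its genes were called lower, where 21.7% of all tested genes were, and after quantile normalization 4 were, where 20.4% of all tested genes were. Kcnj10, the main inwardly rectifying potassium channel of astrocytes, had 2.33 and 3.12 FPKM in the ferret duplicates and 415 and 444 FPKM in the mouse duplicates, a log2 difference of -6.86 (SE 0.094). Gpr37l1, a receptor of astrocytes that associates with the MLC1 complex, had 22.3 and 19.3 FPKM against 103 and 111 FPKM, a log2 difference of -2.31. Slc12a2, the sodium-potassium-chloride cotransporter, had 7.74 and 7.09 FPKM against 25.7 and 24.7 FPKM, a log2 difference of -1.64. Gjb6, connexin 30, was low in both species, at 0 and 0.164 FPKM against 1.79 and 2.00 FPKM. The 2 genes not called, Lrrc8a, a volume-regulated anion channel subunit, and Gprc5b, a receptor, were picked out after their values were seen. Gprc5b had 70.6 and 74.4 FPKM in the ferret duplicates and 72.2 and 74.6 FPKM in the mouse duplicates, which overlapped, and its log2 difference moved from -0.02 with the deposited FPKM to 0.37 after rescaling to equal sums.

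**Figure D4:**
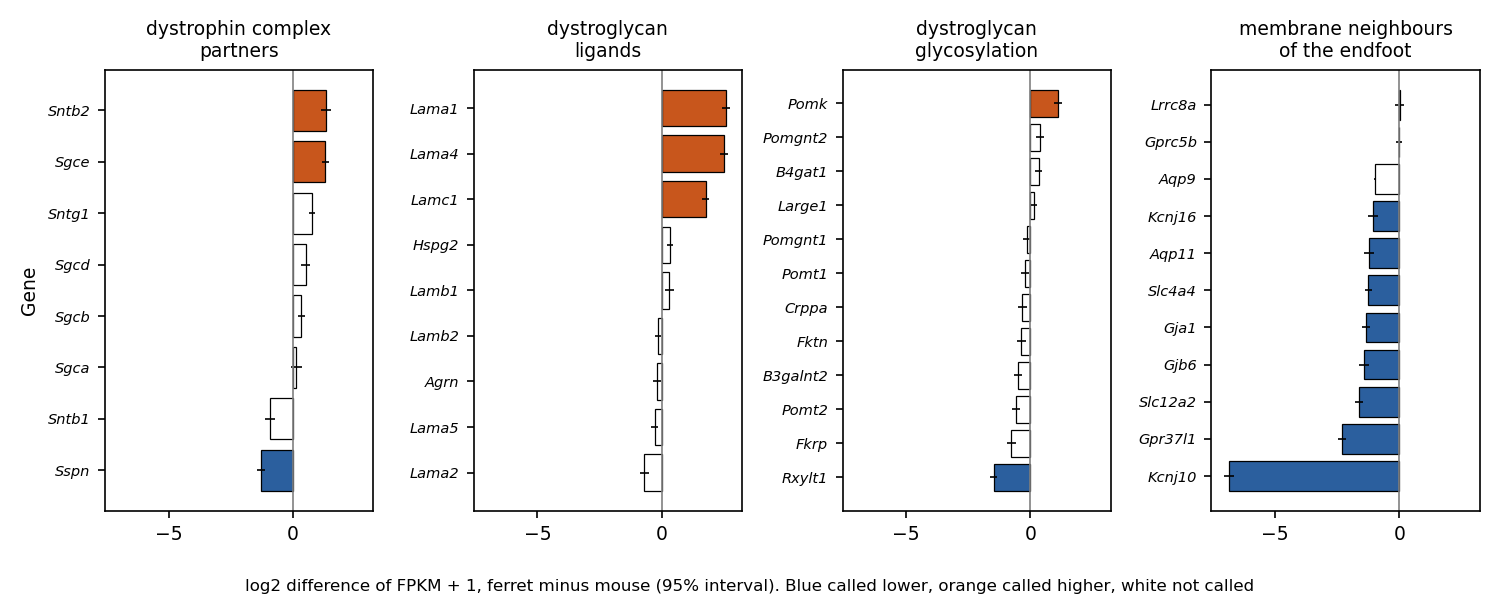
The log2 difference of FPKM + 1, ferret minus mouse, for the shared genes of 4 lists, as bars from zero with the 95% interval from limma (blue called lower in ferret, orange called higher, white not called). The neighbours of the endfoot extend to the left, with Kcnj10 at -6.86, the genes called on the ligand list are to the right, and the partners and the glycosylation genes lie on both sides.

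The libraries were made from whole cultures, in which fewer cells of a type and less RNA per cell cannot be told apart. By immunostaining of cultures kept in serum, the study counted nearly all cells as astrocytes in both species. It counted a few microglia in both, with a larger share in mouse, and a few neurons in ferret cultures only. The RNA, in contrast, came from cultures moved to serum-free medium. Markers of other cell types moved with the species, and their part in the results above was not tested. Their counts are to be read against all tested genes, of which 30.1% were called lower and 13.1% higher. Sums are over the markers that the species share by symbol, which leaves out C1qa, Olig1 and Stmn2, genes with mouse values only that were picked out after those values were seen. All 11 microglial markers tested were lower in ferret astrocytes, with summed values of 6.32 and 6.44 FPKM against 734 to 760 FPKM, and Cx3cr1 is listed at 0 in both ferret libraries. By species mean Cd68 was the highest of these in ferret and Tyrobp in mouse astrocytes, and C1qa had 193 FPKM in both mouse libraries. The study had already listed Tyrobp, C1qb, Ctss and Mpeg1 from these values, as genes under 1 FPKM in ferret and high in mouse astrocytes. Csf1r, Aif1, Itgam, Ptprc and Cx3cr1 were also under 1 FPKM on average in ferret astrocytes. All of these passed the filter through mouse alone, which largely fixed the direction of their calls in advance. All 8 fibroblast markers were lower, with sums of 108 and 122 FPKM against 1529 and 1553 FPKM, led by Col1a2 in ferret and Serpinf1 in mouse astrocytes. Here too the study had already listed Serpinf1 and Pcolce, and Col6a3 and Lum were also under 1 FPKM on average in ferret astrocytes. The direction of these calls was likewise largely fixed in advance. Mural and smooth muscle markers summed to 160 and 184 FPKM against 1185 and 1228 FPKM, with Tagln the highest in both species. Of these markers, 4 of 4 tested genes were lower, and Rgs5 is listed at 0 in the ferret duplicates. Myh11, under the limit of 1 FPKM in both species, averaged 0.195 FPKM in ferret and 0.103 FPKM in mouse astrocytes. Endothelial markers summed to 0.224 and 0.316 FPKM against 24.3 and 24.9 FPKM, and Cdh5 and Tek, the 2 that were tested, were lower. Both passed the filter through mouse alone and could not have been called higher, so their calls say nothing about the rest of the list. Kdr, which was under the limit of 1 FPKM, was the highest of the list in ferret and Cdh5 in mouse astrocytes. Cdh5 alone made up most of the mouse sums, at 22.0 and 22.5 FPKM. Tie1 was near zero in both species, at 0.0204 FPKM on average in ferret and 0.00456 FPKM in mouse astrocytes. Pecam1, Cdh5 and Tek are listed at 0 in both ferret libraries and Cldn5 in both mouse libraries. Of 6 oligodendrocyte lineage markers tested, 3 were higher and 3 not called. Sox10, called higher, and Mag, not called, averaged 0.267 and 0.274 FPKM in mouse astrocytes. Both passed the filter through ferret alone and could not have been called lower. The shared markers of this list, of which Cnp was the highest in both species, summed to 165 and 183 FPKM against 65.3 and 65.9 FPKM. Olig1 had 107 and 117 FPKM in the mouse duplicates, and with it the mouse sums were 173 and 183 FPKM, so no direction is given for the summed level of this list. Of the 2 neuronal markers tested, 1 was called higher in ferret astrocytes, and the 4 shared markers, of which Map2 was the highest in both species, summed to 24.7 FPKM in both ferret libraries against 31.9 and 33.1 FPKM in the mouse duplicates. Stmn2 had 124 and 127 FPKM in the mouse duplicates, which brings the mouse sums to 155 and 161 FPKM.

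The astrocyte label was checked against 8 markers, which summed to 3481 and 3590 FPKM in the ferret duplicates and 2894 and 3147 FPKM in the mouse duplicates, with 4 genes called lower, 1 higher and 3 neither. Among all tested genes 30.1% were called lower and 13.1% higher. From the same values, the study had already reported Aldh1l1, Ndrg2, Slc1a2 and Slc1a3 as lower and S100b and Aldoc as higher in ferret astrocytes. Aldoc was the highest in ferret and Gfap in mouse astrocytes. These 2 genes make up most of the sums, with means of 1660 and 1502 FPKM in ferret and 965 and 1487 FPKM in mouse astrocytes. Aldh1l1, Ndrg2 and Slc1a3 were called lower, with means 8.39-fold, 7.74-fold and 2.25-fold higher in mouse astrocytes, as was Slc1a2. S100b was called higher, with a mean 4.08-fold higher in ferret astrocytes. After rescaling to equal sums and after quantile normalization, 3 of the 8 markers were called lower and 2 higher. Slc1a2, a glutamate transporter, was named here after its values were seen. It was near the lower limit in ferret astrocytes, at 0.133 and 0.178 FPKM against 47.1 and 51.8 FPKM. It passed the filter through mouse alone, so the direction of its call was largely fixed in advance.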

How the data were processed

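Cultured ferret and mouse astrocytes were profiled by stranded, polyA-selected RNA-seq, with 2 libraries per species, grouped by their titles. The authors aligned reads to the Ensembl genome of each species with STAR (version 2.7.0f) and deposited FPKM per gene from Cufflinks (version 2.2.1). These values are normalized to mapped fragments and exon length, and hold no counts. They cover 14584 ferret and 55139 mouse symbols. Steps between low values gave only the ratio of depths within a species, and one read was worth 1.17 times as much FPKM in ferret replicate 2 as in replicate 1, and 0.83 times in mouse.

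Symbols were matched in upper case, and of the 7 ferret and 13 mouse symbols with several values the highest by species mean was kept. limma (version 3.58.1, R 4.3.3, empirical Bayes with a trend) was run on log2(FPKM + 1), without a block, as the libraries of the species come from different animals. Calls required a Benjamini-Hochberg adjusted p under 0.05 over all genes tested and an absolute log2 difference above 1. On simulated data for 10204 genes, in which 200 were changed by a log2 value of 1.5, the fit called 96.5% of these and 0 others. The other genes were simulated without a difference, with the spread of the duplicates, so 0 calls among them was largely fixed in advance. In the real data 43.2% of tested genes were called, so the simulation gives no error rate for them. Ratios within a library were tested by exact permutation (scipy 1.17.1).

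The 9 genes, the 4 pathway lists and the 7 marker lists were chosen with earlier results of these data known. Of each pathway list, called genes with the largest differences were named, up to 4 per direction, and of each marker list the highest shared gene in each species. For Aqp4 and Mlc1 the 3 nearest genes were taken. Some genes that these rules select are not reported here and were left out of the lists. Agrin and Lama2 were picked out after their values were seen. Alternatives were a pseudocount of 0.1, no filter, all 4 libraries brought to their average sum over shared symbols ("equal sums"), a block for the replicate number, quantile normalization, summed values for symbols with several, and each library left out in turn. Mouse coordinates and transcripts are those of GENCODE M21 on GRCm38, the build but not the annotation release of the authors. The read counts and gene lengths of the paper's supplement and a ferret genome were not used here.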

Additional observations from a re-analysis of the deposited data

How the results depend on the processing

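Of the 90 log2 differences of the 9 genes under 10 alternatives, 83 kept their direction and their side of the limits for a call. After rescaling to equal sums, Dag1 moved to -0.95 and Dtna to -0.87, and after quantile normalization to -0.99 and -0.88, so that 3 genes were called lower in place of 5. Hepacam reversed to 0.20 and 0.16 under these scalings. By construction they raise ferret values against mouse values, and the median of all tested genes moved from -0.35 to -0.0019 and 0.08. Relative to that median, Dag1 lay at -0.99 with the deposited FPKM, -0.95 and -1.06, and Dtna at -0.90, -0.87 and -0.96. Trpv4 was past the limits with a pseudocount of 0.1, at -1.27. Among all tested genes, 2110 were called higher after quantile normalization in place of 1336. The astrocyte markers called lower went from 4 to 3 both after rescaling to equal sums and after quantile normalization. After rescaling and quantile normalization, the dystrophin complex partners called lower went from 1 to 0 and 0 (2 with a pseudocount of 0.1, and 1 to 2 with a library left out), the membrane neighbours called lower from 8 to 5 and 4, and the astrocyte markers called higher from 1 to 2 and 2.

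With each library left out in turn, which leaves a species with a single library assumed to vary like the others, the log2 difference ranged from -3.18 to -3.00 for Aqp4, -1.36 to -1.31 for Dag1, -4.14 to -4.12 for Dmd, -1.31 to -1.19 for Dtna, 1.30 to 1.34 for Utrn, -2.93 to -2.83 for Mlc1, -0.26 to -0.11 for Hepacam, 0.20 to 0.36 for Clcn2 and -0.47 to -0.39 for Trpv4. The replicate numbers are shared by the species, and deviations of libraries with the same number correlated at 0.0099 across genes, which gives no sign of pairing. A shared effect on few genes could be missed by this value, so it cannot exclude pairing. With the replicate block 3072 genes were called lower and 1342 higher, against 3069 and 1336 without it, the log2 difference of Aqp4 stayed at -3.09, and no call of the 9 genes changed. The deposited values hold no read counts, so low values such as those of Trpv4 and ferret Dmd carry no counting interval.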

Other observations

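Several genes related to the water channel and the dystrophin complex had mouse values but no ferret value under the same symbol among those used here, and were not compared. Aqp1, the aquaporin of the choroid plexus, had 69.6 and 75.2 FPKM in the mouse libraries. Dtnb, which encodes β-dystrobrevin, had 5.64 and 5.84 FPKM, well under the 48.4 and 52.5 FPKM of its homologue Dtna. Sntg2, a γ-syntrophin gene, had 0.563 and 0.958 FPKM.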
